A study of Mus musculus with 66 samples.

Results

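The Snurf-Snrpn-Ube3a domain of mouse chromosome 7 was taken as the window chr7:59200001-62500000 of GRCm38, a stretch of 3300 kb from upstream of Ube3a to beyond Peg12. Its members were the genes Ube3a, Snurf, Snrpn, Ndn, Magel2, Mkrn3 and Peg12, together with the long neuronal noncoding transcript that runs from Snurf and Snrpn towards Ube3a. All islands of enrichment that the authors listed in this window were described, with their ChIP reads and input reads in each library. They numbered 3389 of 1239421 listed H3K9me3 islands and 1571 of 810323 listed H3K36me3 islands. The window was chosen by measured values of these data, because 1 H3K36me3 region near its small nucleolar RNA genes was present in every library and, with reads counted by length, had opposite ethanol effects in the sexes. Those within-sex values are therefore given below as a description with no test. Both marks had been profiled by ChIP-seq in the prefrontal cortex (PFC) of adolescent mice of the inbred strain DBA/2J. Ethanol groups were gavaged intermittently between postnatal day (PND) 29 and PND 42 with 4 g/kg of ethanol at 25% w/v, water groups were gavaged with water, and the PFC was collected 24 h after the final gavage. A sample was a pool of 3 mice that shared sex and treatment, so values of single animals were not measured. Males and females each had 6 ethanol and 5 water pools, which gave 22 libraries per mark, and PFC is a mixture of neurons and glia in which both parental copies of the domain are measured together.

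Imprinted genes are expressed mainly from the copy inherited from one parent. In this domain Snurf, Snrpn, Ndn, Magel2, Mkrn3 and Peg12 are expressed from the paternal copy, and an imprinting centre at the Snurf and Snrpn promoter carries DNA methylation and repressive histone marks on the maternal copy. In neurons, transcription from the paternal promoter continues through the noncoding host transcript Snhg14, which carries the tandem Snord116 and Snord115 genes and reaches Ube3a from the opposite strand, where it silences the paternal Ube3a. H3K9me3 marks heterochromatin and repeated sequence, and H3K36me3 is laid down by SETD2 along bodies of genes that are being transcribed.

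The small nucleolar RNAs are shown because the islands of the domain are arranged around their repeats. Both families are C/D box RNAs, in which a C box (TGATGA) near the 5′ end and a D box (CTGA) near the 3′ end are needed to assemble the RNA with its proteins. In the sequences below both boxes are in capitals and each copy is read 5′ to 3′ from the minus strand of GRCm38. The Snord116 copy in the H3K36me3 region lies at chr7:59769138-59769231, the most frequent Snord116 copy was taken from chr7:59678509-59678602 and the most frequent Snord115 copy from chr7:59393561-59393639.
Snord116 copy in the H3K36me3 region: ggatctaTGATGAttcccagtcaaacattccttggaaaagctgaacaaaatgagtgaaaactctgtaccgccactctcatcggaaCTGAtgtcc
Most frequent Snord116 copy: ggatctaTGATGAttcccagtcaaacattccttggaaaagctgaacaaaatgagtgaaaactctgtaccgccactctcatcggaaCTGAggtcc
Most frequent Snord115 copy: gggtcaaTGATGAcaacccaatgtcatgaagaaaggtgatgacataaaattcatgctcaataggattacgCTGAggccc
RefSeq placed 70 Snord116 copies in the window, all on the minus strand and 90 to 94 bases long, of which 66 held both boxes. They had 27 distinct sequences, the most frequent of which was found in 28 copies. The copy in the H3K36me3 region shared its sequence with other copies (4 in all) and differed from the most frequent one by G90T, counted from 1 at the 5′ end. Snord115 had 132 copies with 54 distinct sequences, of which 129 copies held both boxes and 32 had the most frequent sequence.

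The H3K36me3 region itself spans chr7:59767601-59769600, in the Snord116 array and inside Snhg14, with the Snord116 copy above near its end and no protein-coding exon. The 300 bases at the middle of the stretch where both marks had a region, chr7:59768051-59768350, are given on the plus strand with CG dinucleotides in capitals.
Middle of the stretch shared by both marks: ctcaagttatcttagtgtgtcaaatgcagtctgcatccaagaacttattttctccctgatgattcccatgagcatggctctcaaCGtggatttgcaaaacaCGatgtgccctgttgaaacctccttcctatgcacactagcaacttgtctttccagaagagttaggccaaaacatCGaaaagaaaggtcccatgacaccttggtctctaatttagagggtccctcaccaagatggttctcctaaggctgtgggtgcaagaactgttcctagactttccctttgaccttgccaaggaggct
All of these bases were soft-masked as repeats in the reference, the GC content was 46% and there were 3 CG dinucleotides. Of the 150-base reads that could start in this stretch, 16% had a sequence found once in the genome, and over all of them the median number of copies was 8 and the maximum 18. The study's methods state that reads mapped to several places were discarded for H3K9me3. Islands were nevertheless listed where no such sequence is unique, as in the H3K9me3 region chr7:61184001-61187800, present in 22 libraries.

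Library facts that touch these results were as follows. Listed islands of a library held 5.73 to 14.2 M ChIP reads for H3K9me3 and 1.70 to 4.79 M for H3K36me3. Bodies of protein-coding genes, where H3K36me3 is known to lie, make up 38.3% of the genome. H3K36me3 islands with a false discovery rate (FDR) of at most 0.01 had less than that share of their length there in 5 of the 6 ethanol and 0 of the 5 water libraries of males, and in 3 of the 6 ethanol and 3 of the 5 water libraries of females. Among 6 neuronal marker genes the median number of libraries with such an H3K36me3 island in the gene was 5.5 of 22 (range 1 to 13), with Map2 at 13 and Gad1 at 1. The oligodendrocyte genes Mog and Mag had 0 and Mbp 5, the astrocyte genes Gfap, Slc1a2 and Aqp4 had 0, 4 and 1, and the microglial genes Csf1r, Cx3cr1 and Aif1 had 0, 11 and 0. Of 6 genes of other tissues, Alb, Apoa1 and Cela1 had 0, and Myh6, Krt5 and Ins2 had 2, 3 and 4, and the part of this in the results was not tested. Counting every listed island, Rbfox3 had one in 19 libraries, Map2 and Syt1 in 18, Cx3cr1 in 17, and Mbp, Krt5 and Ins2 in 12. Among the 50 pairs of libraries within groups of each mark, none was a duplicate, since the smallest chi-square per degree of freedom was 7.35 for H3K9me3 and 11.9 for H3K36me3, where sampling noise alone gives about 1. The p-values below measure the spread between these pools of animals. In such bulk tissue, fewer cells that carry a mark and less of the mark per cell cannot be told apart.

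H3K9me3 islands covered a median of 10.01% of the domain (range 4.67 to 15.8% over 22 libraries) and H3K36me3 islands 4.28% (3.31 to 7.30%). Windows of the same length before and after the domain had H3K9me3 medians of 7.63 and 8.33% and H3K36me3 medians of 4.22 and 2.95%. The whole genome had medians of 6.52% for H3K9me3 and 3.88% for H3K36me3. The number of H3K9me3 islands per library ranged from 86 to 238 (median 150.5), of which 83.9% passed an FDR of 0.01 over all libraries. For H3K36me3 it ranged from 46 to 91 (median 72.5), of which 70.9% passed. An island of the domain held a median of 67 ChIP and 36 input reads for H3K9me3, and 65 and 46 for H3K36me3. Coverage was uneven along the domain. The highest H3K9me3 share was beyond Peg12, at a median of 42.4% (19.7 to 52.2%), and the highest H3K36me3 share was in the Snord116 array, at 22.8% (14.1 to 35.7%).

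**Figure D1:**
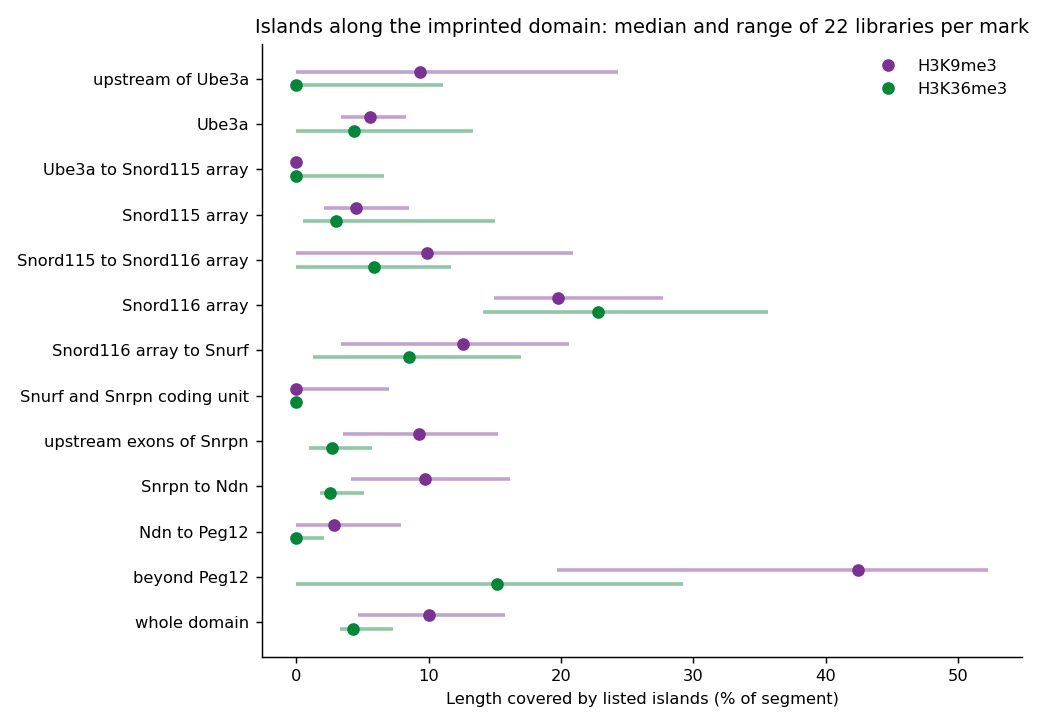
Share of each segment of the domain, in % of its length, covered by listed islands of H3K9me3 (purple) and H3K36me3 (green), with points at the median and lines over the range of the 22 libraries of each mark. The Snord116 array has the highest H3K36me3 median (22.8%), the end of the window beyond Peg12 has the highest H3K9me3 median (42.4%), and the Snurf and Snrpn coding unit is at 0 for both.

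Member genes were described by islands within 1000 bp of their starts and over their bodies. Ube3a, the E3 ubiquitin ligase lost or mutated in Angelman syndrome, had no listed island of either mark at its promoter in any of 22 libraries. Its gene body of 82.8 kb carried H3K9me3 islands in all 22 libraries, with a median of 5.54% of its length covered, and H3K36me3 islands in 19, with a median of 4.34% and a maximum of 13.3%. Over the Ube3a segment the H3K9me3 reads per M listed reads were 22.1 ± 4.11 (SD, n = 6) in male ethanol, 21.3 ± 2.20 (n = 5) in male water, 19.1 ± 2.14 (n = 6) in female ethanol and 20.3 ± 3.49 (n = 5) in female water pools. The H3K36me3 values were 32.8 ± 22.4, 21.9 ± 17.1, 17.2 ± 12.3 and 39.8 ± 17.5 in the same order. The H3K9me3 groups overlapped, and so did the male H3K36me3 groups, each of which held a library with no island on the gene. The female H3K36me3 groups overlapped as well, at 0 to 37.8 with ethanol and 18.5 to 60.7 with water. None of these differences over the segment was tested. Of the H3K36me3 libraries, those with no island on the gene were male ethanol replicate 6, male water replicate 4 and female ethanol replicate 5.

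Snurf and Snrpn share a promoter and a transcript that encodes the SNURF peptide and the spliceosomal SmN protein. An H3K9me3 island lay at this promoter in 4 libraries, in 3 of them at an FDR of at most 0.01, with a median fold over input of 1.60, and an H3K36me3 island in 0. The coding unit from the promoter to the end of Snrpn, at 22.8 kb, was covered by neither mark at the median. By contrast, the segment of upstream exons of Snrpn had H3K9me3 over a median of 9.30% (3.55 to 15.3%) and H3K36me3 over 2.72%. The most distal of these starts, which RefSeq gives to both Snrpn and Snhg14, had an H3K9me3 island in 17 libraries, but in only 5 at an FDR of at most 0.01 and with a median fold over input of 1.25. It was also the only member promoter with an H3K36me3 island, in 2 libraries and in 0 at that FDR. The remaining Snrpn starts, at 60047978 and 60140225, had 0 of either mark. Ipw, a noncoding RNA of the Snord116 array, had an H3K9me3 island at its promoter in 4 libraries.

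The 2 promoters that differ in this way are printed from RefSeq (GRCm38.p6), 300 bases each on the minus strand, with CG dinucleotides in capitals. The Snurf promoter is chr7:60005150-60005449 and the Snhg14 promoter is chr7:60450128-60450427.
Snurf promoter: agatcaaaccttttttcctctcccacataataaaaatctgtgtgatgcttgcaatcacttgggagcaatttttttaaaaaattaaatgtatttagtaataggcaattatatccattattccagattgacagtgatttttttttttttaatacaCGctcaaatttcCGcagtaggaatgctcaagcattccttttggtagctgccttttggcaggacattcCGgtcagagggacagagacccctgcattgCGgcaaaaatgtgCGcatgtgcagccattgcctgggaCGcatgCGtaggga
Snhg14 promoter: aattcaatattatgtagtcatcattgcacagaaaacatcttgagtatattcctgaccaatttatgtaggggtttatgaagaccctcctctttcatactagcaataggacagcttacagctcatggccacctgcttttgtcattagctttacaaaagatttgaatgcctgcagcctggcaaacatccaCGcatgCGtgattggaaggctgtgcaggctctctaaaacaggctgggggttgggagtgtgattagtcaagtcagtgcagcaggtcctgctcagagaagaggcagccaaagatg
The first holds 7 CG dinucleotides, the median of 32851 RefSeq promoters of this length, and 52.1% of promoters hold at least as many. The second holds 2, and 85.9% hold at least as many. Ube3a had 29, Mkrn3 15, Peg12 12, Ndn 11 and Magel2 10. CG dinucleotides were counted once, since the word CG reads the same on both strands, and their number says nothing of their methylation, which was not measured.

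The intronless genes at the far end of the domain were nearly free of both marks. Ndn and Magel2 encode MAGE family proteins, and Peg12 encodes a GSK3-binding protein. None of these 3 genes had a listed island of either mark in its promoter or body in any library. Such absence was usual for bodies of this length. Of 7762 protein-coding genes under 10 kb, 3.65% had H3K9me3 islands in the body in at least 11 libraries and 2.49% had H3K36me3 islands. Their median number of libraries with an island was 0 for each mark. Mkrn3, a zinc finger E3 ligase known for restraining the onset of puberty, had an H3K9me3 island at its promoter in 3 libraries (3 at an FDR of at most 0.01, median fold over input 2.95) and in its body in 1. The stretch from Ndn to Peg12 still held H3K9me3 islands between the genes in 20 libraries, over a median of 2.84% of the segment. Over all 32851 RefSeq promoters, 6.98% had an H3K9me3 island in any library and 1.86% in at least 11, and for H3K36me3 the shares were 10.7 and 1.42%. Among member promoters, the most distal start of Snrpn alone had H3K9me3 in at least 11 libraries. Promoters of other imprinted genes were looked up from a list of 17 genes, of which 13 had 17 promoters in the table. Only Inpp5f had an H3K9me3 island, in 2 libraries, and none had H3K36me3.

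Snhg14, the host transcript, spans 668 kb in GENCODE, and its body was covered over a median of 11.05% (maximum 15.96%) by H3K9me3 and 10.2% (maximum 20.2%) by H3K36me3, with islands in all 22 libraries. Protein-coding genes over 50 kb had medians of 0 and 1.37%. Other imprinted noncoding transcripts varied. Kcnq1ot1, which silences genes next to Kcnq1, had 11.5 and 8.91%, Airn, which acts at Igf2r, had 4.96 and 2.02%, and Meg3 had 0 and 5.52%. Rian, Mirg and Peg13 had a median of 0 for both marks. Genes outside the imprinted block also ranged widely. Oca2, which is needed for pigment, had 10.4% H3K9me3 and 4.88% H3K36me3, and Herc2 had 2.59 and 7.21%. The GABA-A receptor genes Gabrg3 and Gabra5 had H3K9me3 medians of 4.01 and 1.85% and H3K36me3 medians of 3.06 and 0%.

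Within Snhg14, the marks were concentrated in the Snord116 array, chr7:59673461-59904848, and not in the Snord115 array, chr7:59347173-59619095. The Snord116 array makes up 231 kb of the domain. H3K9me3 covered a median of 19.8% of it (14.9 to 27.7%) and H3K36me3 22.8%, whereas the Snord115 array of 272 kb was covered over 4.48% (2.06 to 8.52%) and 3.01% (0.514 to 14.99%). In every library of both marks some island lay in each array. The Snord116 array held a median of 49.3% of the H3K36me3 reads of the domain (34.5 to 60.9%) and 22.1% of the H3K9me3 reads (16.7 to 34.8%). Fold over input in its islands was 1.66 for H3K9me3 and 1.88 for H3K36me3, against 1.65 and 1.38 in the rest of the domain and 1.42 and 1.13 over all listed islands. Input reads per kb of island were also higher in the array, at 32.7 and 28.4, than in the rest of the domain, at 19.5 and 21.9, and over all listed islands they were 28.5 and 34.7. At an FDR of 0.01 the covered share of the array was 16.97% for H3K9me3 (8.12 to 25.9%) and 20.4% for H3K36me3 (1.73 to 35.4%).

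The islands of the Snord116 array followed its repeat unit. Copies were spaced by a median of 2528 bp, and 67 units with a spacing of 2400 to 2700 bp were laid over each other from the end of one copy to the start of the next. Averaged over these units and 22 libraries, coverage was lowest beside the small nucleolar RNA and highest about 1175 bp from it. H3K9me3 covered 11.6% of units at the start of the unit, 48.6% in its middle and 9.36% at its end, and H3K36me3 covered 16.5, 53.0 and 15.7%. Of the 67 units, 48 had H3K9me3 and 45 had H3K36me3 in at least 11 libraries. The small nucleolar RNA copies themselves were covered in at least 11 libraries in 6 of 70 cases for H3K9me3 and 9 of 70 for H3K36me3, and for Snord115 in 4 of 132 for each mark.

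**Figure D2:**
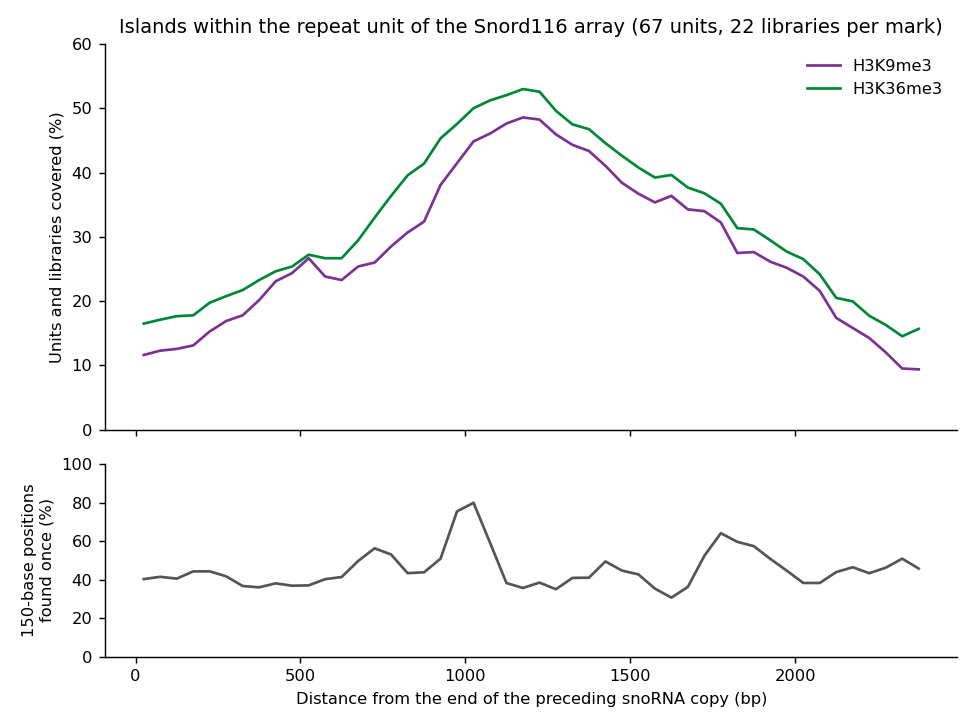
Upper panel: share of the 67 Snord116 units and 22 libraries per mark, in %, that a listed island covered at each distance, in bp, from the end of a small nucleolar RNA copy, for H3K9me3 (purple) and H3K36me3 (green). Lower panel: share of 150-base reads, in %, whose sequence is found once in the genome. Coverage peaks near 1175 bp at 48.6 and 53.0% and is below 17% beside the copies.

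How far a read can be placed varied with position and was set beside this pattern. In the Snord116 array 34.5% of 150-base sequences are found once in the genome, against 48.7% in the Snord115 array and 90.3% in the domain without the Snord116 array. Windows of 200 bp of the Snord116 array that were covered in at least 11 libraries had a mean of 38.6% unique sequence for H3K9me3 and 40.7% for H3K36me3, and windows covered in none had 31.3 and 27.3%. At the peak of the unit, 35.7% of sequences were unique, at its ends 40.3 and 45.8%, and 1025 bp into the unit 79.9%. Regions of both marks in the array had a median GC content of 47.0%, against 37.6% over all windows of the array. Input reads of listed islands, per kb of unit, were 2.86 at the start of the unit, 17.4 at its peak and 2.08 at its end for H3K9me3. For H3K36me3 they were 3.61, 17.1 and 3.24. Input reads are listed only within islands, so these values also follow the coverage. The part of GC content, of input and of read placement in the pattern was not tested.

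Regions were defined as positions that islands covered in at least 11 of the 22 libraries of a mark. The domain held 151 of 52559 H3K9me3 regions, of which 44 were present in all 22 libraries, and 74 of 31085 H3K36me3 regions, of which 23 were. The Snord116 array held 48 of the H3K9me3 regions and 41 of the H3K36me3 regions. Of those present in all libraries, 20 of 44 and 21 of 23 lay there. Both marks often lay in the same place. All 74 H3K36me3 regions of the domain overlapped an H3K9me3 region by at least 1 bp, against 80.5% over the genome, 91.1% in the window before and 90.9% in the window after. In the other direction 76 of 151 H3K9me3 regions (50.3%) overlapped an H3K36me3 region, against 45.4% over the genome, 57.1% in the window before and 36.4% in the window after. In the Snord116 array this was 43 of 48 (89.6%) and in the rest of the domain 33 of 103 (32.04%). Within single pools, a median of 74.5% of the H3K9me3 length in the array was also covered by H3K36me3 of the same pool (55.1 to 91.1%), against 22.6% in the rest of the domain (13.99 to 41.3%). Of the H3K36me3 length, 66.7% in the array and 71.05% in the rest of the domain was also covered by H3K9me3 of the pool. Both marks of a pool were compared with the same input library and come from different precipitations of mixed cells, so their presence on 1 nucleosome was not measured.

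The H3K36me3 region at chr7:59767601-59769600 was overlapped by 1 island in each library. In 11 libraries that island ended at 59768800, before the Snord116 copy. The islands were 1200 to 6400 bp long (median 2800), held 79 to 270 ChIP and 43 to 164 input reads, and had fold values over input of 1.46 to 2.71 and q-values of 3.43e-24 to 0.00119. The region took a median of 1.84% of the H3K36me3 reads of the domain (0.845 to 2.90%). The read count of a region was the share of the island's reads that falls in it by length. In male ethanol pools 1 to 6 this gave 16.7, 17.1, 18.3, 16.5, 20.7 and 31.6 reads per M listed reads, from 40, 82, 86, 28, 79 and 118 ChIP reads. Male water pools 1 to 5 had 24.6, 29.5, 28.0, 26.8 and 24.0 reads per M, from 63, 118, 100, 90 and 98 ChIP reads. All male ethanol pools except replicate 6 were below all male water pools. Female ethanol pools had 24.8, 29.0, 19.3, 29.1, 26.4 and 42.0 reads per M, and female water pools 24.6, 22.9, 18.01, 26.2 and 28.7, and these groups overlapped. Means were 20.2 ± 5.83 (SD, n = 6) against 26.6 ± 2.32 (n = 5) in males and 28.4 ± 7.54 (n = 6) against 24.1 ± 4.00 (n = 5) in females. The fitted log2 fold change for ethanol was -0.46 (SE 0.17) in males and 0.22 (SE 0.16) in females, a female minus male difference of 0.68 (SE 0.24). These are the values by which the region was noticed and they carry no test.

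The boundaries of the islands moved with these values. The island was 2000 to 4400 bp long in male ethanol pools (median 4100) and 1200 bp in 3 of 5 male water pools (range 1200 to 3800). In 2 male ethanol pools it reached back to join the preceding region at 59764401, and in 0 of the other 20 libraries. An island that is longer gives a smaller share of its reads to a fixed region. Counted over the whole block chr7:59764401-59769600, reads per M were 46.2 ± 11.6 (SD, n = 6) in male ethanol, 49.3 ± 5.86 (n = 5) in male water, 45.9 ± 9.02 (n = 6) in female ethanol and 46.6 ± 12.3 (n = 5) in female water pools, and all groups overlapped. On this count the log2 difference was -0.12 in males and -0.01 in females, and the difference between sexes fell from 0.68 to 0.11. Counting all reads of the overlapping islands turned the male difference to 0.32 and left -0.01 in females. Divided by input reads, the female difference was -0.04 and the difference between sexes 0.25. Reads per kb of island gave -0.63 in males and 0.14 in females. With reads counted by length, the female difference was -0.18 among libraries with a high gene body share. The direction thus depended on how the reads were counted and, in females, on which libraries were used. In males, among the counts given here, it turned only where all reads of the overlapping islands were counted.

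**Figure D3:**
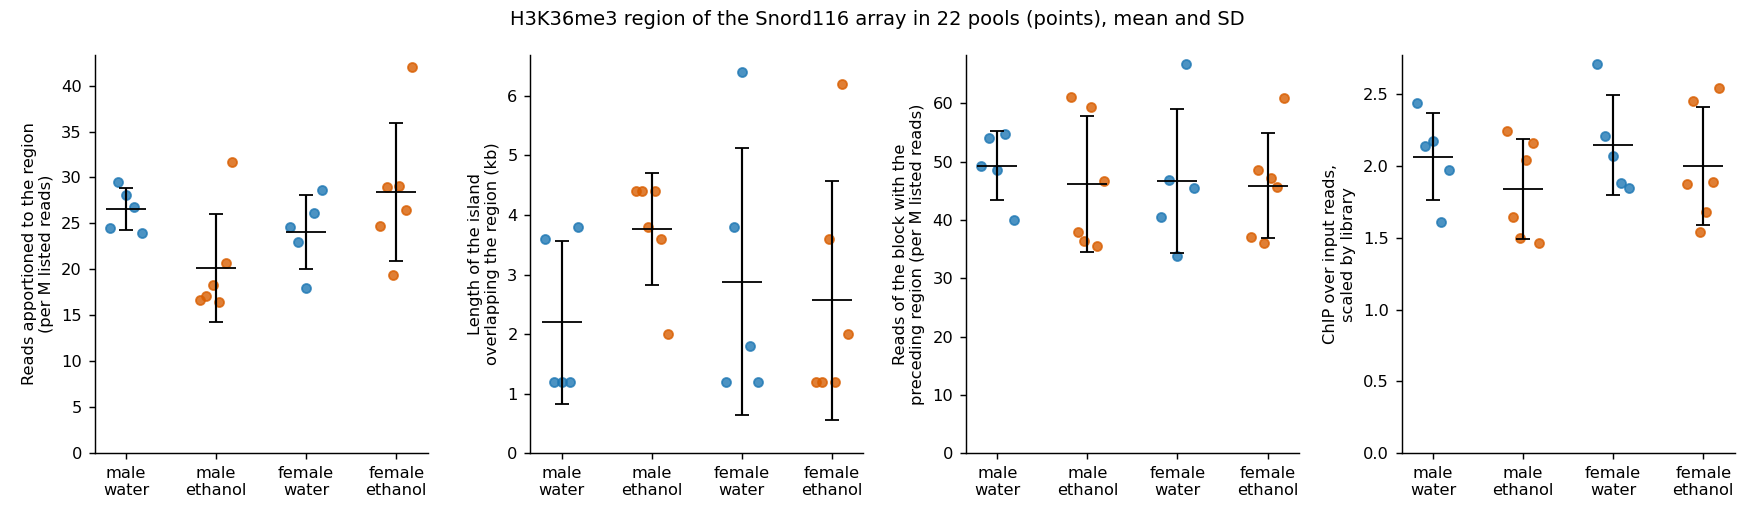
The H3K36me3 region of the Snord116 array in the 22 pools (points, blue for water and orange for ethanol), with the mean and SD of each group. From left to right: reads apportioned to the region per M listed reads, length of the overlapping island in kb, reads per M over the block that includes the preceding region, and ChIP over input reads scaled by library. The male ethanol mean is lower in the first panel (20.2 against 26.6) and the median island longer in the second (4100 against 1200 bp), and the male ethanol and water pools overlap in each panel.

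Averaged over sexes, the log2 fold change of ethanol in the region was -0.11 (SE 0.14), which comes from the same effects and is likewise a description. For the difference between sexes with treatments averaged, which the rule had not used, females against males gave 0.27 (SE 0.14, edgeR adjusted p = 0.858). H3K9me3 had a region of its own at the same start, chr7:59767601-59768800, present in all 22 libraries. It had 12.1 ± 3.70 reads per M (n = 6) in male ethanol, 13.3 ± 1.45 (n = 5) in male water, 12.5 ± 1.96 (n = 6) in female ethanol and 13.4 ± 2.10 (n = 5) in female water pools. Its log2 fold change for ethanol was -0.14 (SE 0.17) in males and -0.00307 (SE 0.13) in females, and the interaction was 0.14 (SE 0.22), with edgeR adjusted p-values of 0.999, 0.999 and 1.000. Among the regions most like the H3K36me3 region over the 22 pools, by Spearman correlation of scaled log2 counts of 5737 regions outside the domain, were those whose nearest protein-coding starts are Mup9 (0.796), Fgf13 (0.701), Zfp960 (0.683) and Olfr951 (0.669), and none of them lay inside a protein-coding gene. The 95th percentile of all correlations was 0.405. These values share libraries and the same way of counting and are a description.

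Whether ethanol changed H3K9me3 at other positions of the domain was tested within each sex, in regions that each of the 11 libraries had listed. Among males, 3 of 72 regions had an unadjusted p of 0.05 or lower by edgeR, against 2.92% of 27955 regions over the genome, and 0 passed after Benjamini-Hochberg adjustment over all regions. DESeq2 also had 3 at the unadjusted threshold and 0 after adjustment, with a smallest adjusted p of 0.416. With ChIP over input reads the count was 8 of 72, of which 1 was higher, and 0 passed after adjustment. Over the genome it was 1516 of 27964, of which 804 were higher. The median log2 fold change was 0.02 in the domain (-0.03 with ChIP over input reads) and -0.0005 over all regions. The region of smallest p was chr7:59880601-59880800, in the Snord116 array. Male ethanol pools 1 to 6 had 8, 16, 7, 10, 9 and 7 ChIP reads in it and male water pools 1 to 5 had 34, 24, 17, 8 and 27, and all but replicate 4 of the water pools were above all ethanol pools. Its log2 fold change was -1.31 (SE 0.33, edgeR adjusted p = 0.999). Only 10.5% of its 150-base sequences are unique, and after division by input reads the difference was -0.32. The other regions were higher in ethanol. One at chr7:62491401-62494800, beyond Peg12, had 14.8 to 20.8 reads per M (median 15.8) with ethanol and 15.6, 13.6, 10.6, 8.56 and 15.7 with water. One at chr7:60534601-60537800, between Snrpn and Ndn, had 11.5 to 16.5 (median 13.1) with ethanol and 10.7 to 11.9 with water, so that both regions overlapped between treatments. Their log2 fold changes were 0.37 (SE 0.16) and 0.25 (SE 0.11), both with an edgeR adjusted p of 0.999. Without male water replicate 4 the count of 3 became 1.

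In females, 4 of 46 H3K9me3 regions were at the unadjusted threshold by edgeR, against 3.99% of 27241 regions, and 0 passed after adjustment. DESeq2 gave 4 and 0. The smallest p belonged to chr7:61319401-61322400, between Snrpn and Ndn. Its reads per M were 9.36, 12.6, 8.01, 9.48, 12.4 and 15.1 in female ethanol pools 1 to 6 and 8.51, 6.51, 9.36, 6.59 and 8.43 in female water pools 1 to 5, so that the groups overlapped. The log2 fold change was 0.56 (SE 0.18, edgeR adjusted p = 0.999). Input reads in the same islands were 55.7 ± 10.1 in ethanol pools (SD, n = 6) and 35.0 ± 16.7 in water pools (n = 5), and the difference turned to -0.14 after division by input reads. In males 1 ethanol library had no island there. A region at the edge of the window, chr7:62496401-62503600, had 35.2 ± 4.02 reads per M (n = 6) with ethanol and 30.6 ± 5.12 (n = 5) with water and changed by 0.29 on the log2 scale (SE 0.10), with an adjusted p of 0.999 in edgeR. In the Snord116 array, chr7:59859801-59860000 had 4.83 to 9.30 reads per M (median 6.75) with ethanol and 6.93 to 14.02 (median 9.002) with water, which is -0.42 on the log2 scale (SE 0.17). Nearby, chr7:59742201-59743400 had 8.04 to 11.9 (median 10.6) with ethanol and 10.8 to 17.6 (median 12.1) with water, or -0.31 (SE 0.14). Both overlapped between treatments and had an edgeR adjusted p of 0.999. Fold over input was 1.66 ± 0.34 (SD) with ethanol and 2.07 ± 0.34 with water in the first of these. In the second it was 1.54 ± 0.37 and 1.70 ± 0.77. The count of 4 became 2 without female water replicate 4 or without female ethanol replicate 1.

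Averaged over sexes, 1 of 44 H3K9me3 regions was at the unadjusted threshold, against 3.95% of 22077, and 0 passed after adjustment by edgeR or DESeq2, which also gave 1. It was again chr7:62496401-62503600, at 0.17 (SE 0.07, edgeR adjusted p = 0.999), and 0.04 after division by input reads. The count became 0 without female water replicate 4. It became 2 without male water replicate 2, female water replicate 1 or female ethanol replicate 6, and 3 without male water replicate 4, male ethanol replicates 1 or 3, or female water replicates 2 or 3. For the treatment-by-sex interaction, 0 of 44 regions were at the unadjusted threshold by edgeR or DESeq2, against 3.61% over the genome. Leaving out female water replicate 1, female water replicate 3 or female ethanol replicate 1 gave 1.

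H3K36me3 had fewer testable regions, and 21 of the 23 tested in males lay in the Snord116 array. In males, 0 of 23 regions other than the one above were at the unadjusted threshold by edgeR, against 5.71% of 7532 over the genome, and DESeq2 gave 0 as well. With ChIP over input reads, 5 of 23 were at the threshold, all lower with ethanol, against 521 of 7532 over the genome, and 0 passed after adjustment. How many of those 521 were lower is not reported here, so this direction cannot be called particular to the domain. By edgeR the log2 fold changes of the 23 regions lay between -0.34 and 0.18 with a median of -0.17. Of these, 5 of 23 were positive, against a median of 0.01 over all regions. Without trimmed mean of M-values (TMM) scaling, the medians were -0.01 in the domain and 0.18 over all regions and 11 of 23 were positive, so the direction depended on the scaling while the gap to all regions stayed. The counting by length described above, and the gene body share that was low in 5 of 6 male ethanol and 0 of 5 male water libraries, moved with this comparison, and their part in it was not tested. Without male water replicate 3 or male ethanol replicate 4 the count at the threshold was 2, and without male ethanol replicate 5 it was 1. In females, 0 of 29 were at the threshold by edgeR and by DESeq2, against 3.60% of 9018, with a median of -0.04 against 0.001. The count was 2 without female water replicate 1 or female ethanol replicate 2, and 1 without female ethanol replicates 3 or 6.

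Averaged over sexes, 1 of 22 H3K36me3 regions other than the one above was at the unadjusted threshold by edgeR and by DESeq2, against 3.25% of 5760, and 0 passed after adjustment. With ChIP over input reads the count was 6, all lower, against 320 of 5760 over the genome, whose direction is not reported here. The 1 region of the edgeR and DESeq2 counts was chr7:59764401-59765600, just before the one described above. Male ethanol pools 1 to 6 had 16.7, 15.7, 10.7, 16.5, 14.7 and 15.02 reads per M and male water pools 1 to 5 had 14.8, 14.7, 12.3, 28.0 and 16.1. In females the values were 12.3, 11.8, 16.7, 10.8, 11.7 and 18.9 with ethanol and 15.9, 14.3, 15.6, 27.7 and 16.7 with water. Replicate 4 of each water group stood above all other libraries and the rest overlapped. The log2 fold change was -0.32 (SE 0.13, edgeR adjusted p = 0.996). Without TMM factors it was -0.23 (edgeR adjusted p = 0.816), and the region no longer reached the unadjusted threshold. Without male water replicate 4 the count of 1 became 0, and without male water replicate 3 or male ethanol replicate 4 it became 2. In the 2 male ethanol pools whose island joined both regions, this count too was a share by length.

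**Figure D4:**
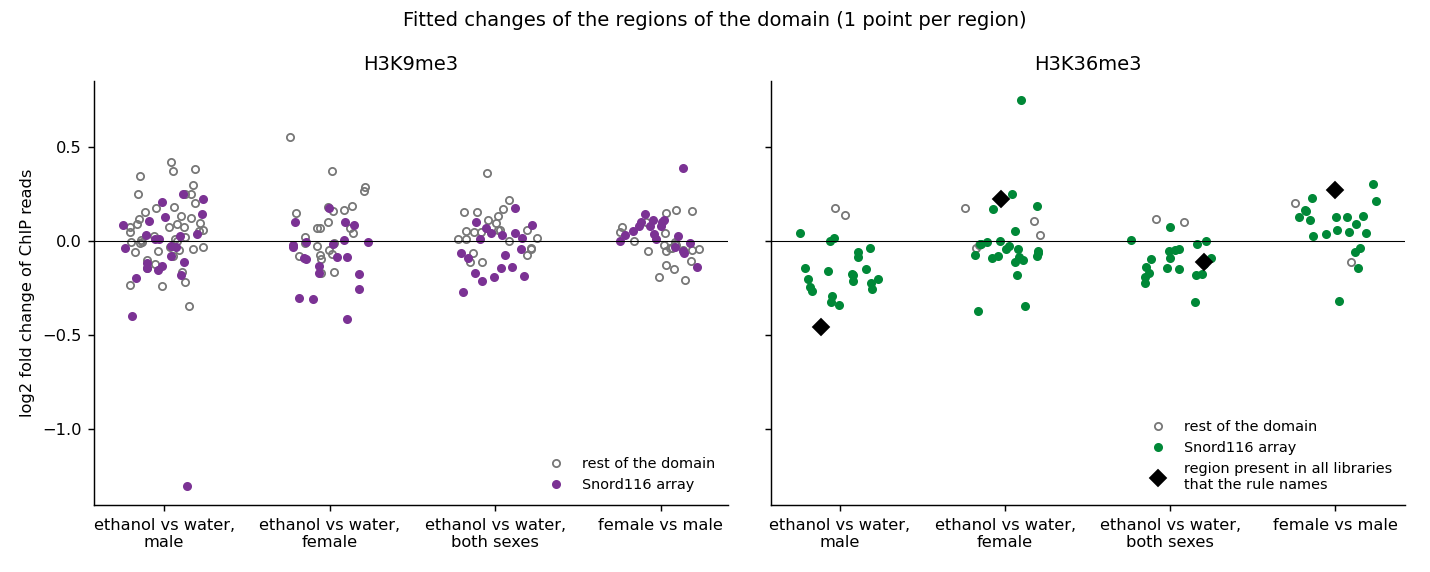
Fitted log2 fold changes of ChIP reads for the regions of the domain that could be tested, 1 point per region, for H3K9me3 (left) and H3K36me3 (right) in 4 comparisons. Filled points lie in the Snord116 array, open points in the rest of the domain, and the diamond is the H3K36me3 region at chr7:59767601-59769600. In males the H3K9me3 changes lie between -1.31 and 0.42 and those of H3K36me3, apart from the diamond, between -0.34 and 0.18. Those of females lie between -0.42 and 0.56 and between -0.37 and 0.75, and 0 regions passed an adjusted p of 0.05.

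The sexes were compared with treatments averaged. Regions over the genome include those of chromosome X, whereas the domain is autosomal, so the genome shares are an unlike background for it. For H3K9me3, 1 of 44 regions reached the unadjusted threshold in edgeR and in DESeq2, and 0 did so after adjustment in either, whereas 10.2% of 22077 regions over the genome were at that threshold and 4.28% passed after adjustment. The region, chr7:62322401-62327000 between Snrpn and Ndn, had 17.01 to 24.3 reads per M in male and 13.1 to 20.1 in female pools, a log2 fold change, female over male, of -0.19 (SE 0.08, edgeR adjusted p = 0.294). It was -0.01 after division by input reads. The count became 2 without male ethanol replicate 3 or without female water replicate 4. For H3K36me3, 0 of 23 regions were at the unadjusted threshold by edgeR and 1 by DESeq2, against 5.85%, and 0.538% of regions over the genome passed after adjustment. Without TMM factors 3 of 23 were at the threshold, and the genome count in that setting is given below. Of the 23, 18 had a positive log2 fold change, with a median of 0.11 against -0.002 over all regions. Leaving out female ethanol replicate 3 gave 3 regions at the threshold, leaving out male water replicate 1 gave 2, and leaving out male water replicates 2, 3 or 4, male ethanol replicates 4 or 6, or female water replicates 1, 3 or 4 gave 1.

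The domain as a whole was compared between treatments by the length covered and by its share of reads, in 8 two-sided exact permutation tests, each of which enumerated 462 splits. H3K9me3 islands covered 361 ± 92.0 kb in ethanol pools (SD, n = 6) and 336 ± 4.23 kb in water pools (n = 5) of males (exact p = 0.684). Female pools had 314 ± 15.4 and 261 ± 79.6 kb (exact p = 0.173). The female difference of 53.0 kb became 26.3 kb without female water replicate 2 and 72.5 kb without female water replicate 3. The male ethanol pools ranged from 254 to 520 kb around the water pools at 332 to 341 kb. Without male ethanol replicate 4 the male difference turned from 24.5 to -7.44 kb. H3K36me3 islands covered 156 ± 36.3 against 135 ± 20.1 kb in males (exact p = 0.281). In females the lengths were 148 ± 47.2 and 156 ± 27.5 kb (exact p = 0.727). Without female water replicate 3 the female difference turned from -7.96 to 3.60 kb, and without female ethanol replicate 2, the pool with 241 kb, it was -26.6 kb (exact p = 0.0476, adjusted p = 0.381). The share of H3K9me3 reads was 1779 ± 156 per M listed reads with ethanol and 1699 ± 49.9 with water in males (exact p = 0.299). The male difference of 79.7 became 18.7 when male ethanol replicate 4 was left out. In females the shares were 1488 ± 96.9 and 1368 ± 159 (exact p = 0.169), and the difference turned to -0.0223 as a linear ratio of ChIP to input reads. The female difference of 121 became 58.0 without female water replicate 2 and 165 without female water replicate 5. For H3K36me3 the share was 1501 ± 330 against 1389 ± 105 in males (exact p = 0.498). This male difference of 112 became 15.99 without male ethanol replicate 1 and turned to -0.00592 as a linear ratio of ChIP to input reads. With the 1 male ethanol library of high gene body share it was -132, with no test. In females the H3K36me3 share was 1386 ± 270 with ethanol and 1478 ± 384 with water (exact p = 0.606). Without female water replicate 4 the last difference turned from -91.9 to 66.4. With islands at an FDR of at most 0.01, the H3K36me3 differences turned direction in both sexes, from 112 to -587 in males (exact p = 0.264) and from -91.9 to 485 in females (exact p = 0.268). Adjusted over the 8 tests with all listed islands and libraries, p was between 0.597 and 0.727. Reads of the Snord116 array alone, per M listed reads, were 666 ± 224 against 737 ± 57.8 in males and 684 ± 105 against 754 ± 256 in females for H3K36me3, given with no test.

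**Figure D5:**
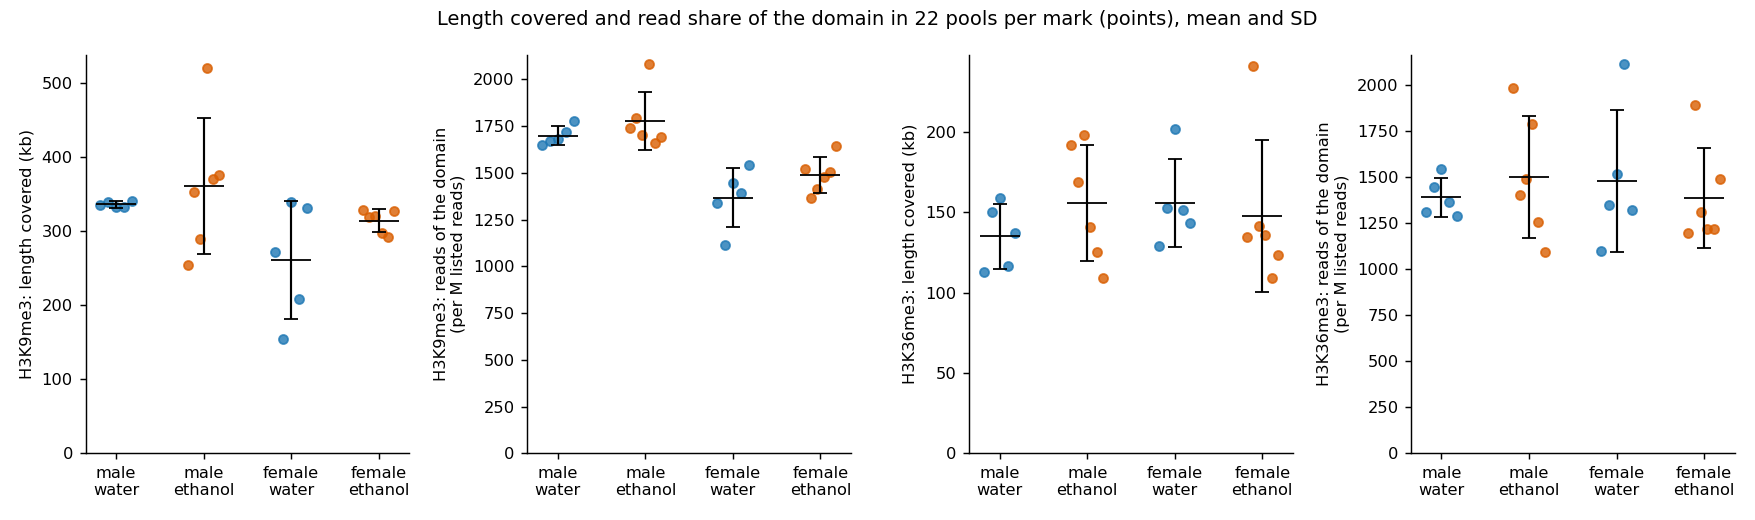
Length of the domain covered by listed islands, in kb, and ChIP reads of the domain per M listed reads, for H3K9me3 (left pair) and H3K36me3 (right pair) in the 22 pools (points, blue for water and orange for ethanol), with the mean and SD of each group. Ethanol and water pools overlap in each panel and sex, and the exact p-values run from 0.169 to 0.727.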

How the data were processed

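ChIP-seq of H3K9me3 and H3K36me3 and an input library were available for 22 pools, 66 samples in all. Per the study's methods, the authors trimmed reads with CutAdapt, aligned them to GRCm38 (mm10) with Bowtie2 2.4.1 and called islands per library with SICER in windows of 200 bp. The deposited lists give each island's position, ChIP read count and input read count, a p-value, a fold ratio of ChIP over input and a q-value. They were not filtered on q, and both marks of a pool share 1 input library. Removal of reads mapped to several places is stated for H3K9me3 only.

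Islands were placed on 200 bp bins, and a region was a run of bins covered in at least 11 of 22 libraries. An island's counts were divided over its bins by length, so a region's count depends on where the caller ended the island, which limits every comparison of regions. Regions with an island in all libraries of a comparison were tested over the whole genome with edgeR 4.0.16 (quasi-likelihood, TMM, R 4.3.3), with Benjamini-Hochberg adjustment over all regions. The unadjusted threshold of 0.05 follows the study. Regions named were at most 5 of the smallest p per comparison among those at that threshold. Domain totals were compared by exact permutation tests (scipy 1.17.1). The procedure was also run on simulated data, and the outcome is not reported here. Alternatives were DESeq2 1.42.0, no TMM factors, no count filter, islands at an FDR of 0.01, ChIP over input (pseudocount 1 read), a replicate block, leaving out each library, and, added after seeing the data, other counts of the H3K36me3 region and libraries with a high gene body share. The members and lists were chosen with earlier results of these data known. Listed depths are ranges of reads in islands. The study's totals of aligned reads served only as an alternative for the H3K9me3 read share. Some items of the lists are not reported here.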

Additional observations from a re-analysis of the deposited data

Results flagged for a closer look

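In groups of 5 or 6 pools, a pool was set apart where its gap to the nearest other pool exceeded Dixon's 95% limit for the group's range. Of 60 groups, 7 (11.7%) had such a pool. For independent groups chance gives about 1 in 20, but these groups share libraries and most come from regions chosen by their values, so the shares are not comparable. For the domain as a whole, these were male ethanol replicate 4 with an H3K9me3 share of 2084 reads per M and female ethanol replicate 2 with 241 kb of H3K36me3. In the H3K36me3 region at 59767601-59769600, male ethanol replicate 6 had 31.6 reads per M, above the other male ethanol pools, and its island was the shortest of them at 2000 bp. In the region before it, 59764401-59765600, male ethanol replicate 3 was lowest of its group at 10.7, and male water replicate 4 at 28.0 and female water replicate 4 at 27.7 were highest. In the H3K9me3 region at 61319401-61322400, male ethanol replicate 1 had 0, since it listed no island there. No cause of these values was tested.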

How the results depend on the processing

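Of the values that answer a comparison, 259 recomputed ones kept their direction and size, 59 moved and 9 reversed, and for single regions these numbers were 314, 3 and 7. No domain region passed adjustment in any setting listed here. Counts below are of regions at an unadjusted p of 0.05, each of the domain regions tested, with the same over the genome in parentheses. With islands at an FDR of 0.01, which left fewer regions to test, counts were 1 of 26 (280 of 11722; H3K9me3, males), 2 of 12 (198 of 6643; H3K9me3, females), 0 of 9 (124 of 3929; H3K9me3, both sexes) and 0 (0 of 45; H3K36me3, both sexes). At that FDR the H3K36me3 read share differed by -587 in males and 485 in females, and the H3K9me3 read share by 49.0 and 38.5. The H3K36me3 length then differed by 17.1 kb in males and -14.2 kb in females. With ChIP over input, H3K9me3 counts were 8 of 72 in males (1 higher, 1516 of 27964), 2 of 44 over both sexes (1280 of 22077), 3 of 44 for the interaction (1070 of 22077) and 3 of 44 for sex (1335 of 22077). H3K36me3 counts were 5 of 23 in males (0 higher, 521 of 7532), 2 of 29 in females (0 higher, 451 of 9028), 6 of 22 over both sexes (0 higher, 320 of 5760) and 1 of 23 for sex (234 of 5760). The direction of these H3K36me3 genome counts is not reported here. The female log2 difference of H3K9me3 at 61319401-61322400 was then -0.14, that of the H3K36me3 region -0.0367, and the scaled ratio of ChIP to input reads over the domain, on a linear scale, differed by -0.0223 (H3K9me3, females) and -0.00592 (H3K36me3, males). With the replicate block, H3K9me3 counts were 0 of 44 over both sexes (825 of 22077) and 2 of 44 by sex (2267 of 22077), and H3K36me3 counts 1 of 23 in males (439 of 7532), 1 of 29 in females (297 of 9018) and 1 of 23 by sex (320 of 5760). Same-numbered pools did not deviate together (r from -0.115 to 0.0749). This check cannot show whether they were handled together, so whether the numbers pair them is not known. Without TMM factors H3K36me3 counts were 1 of 29 in females (255 of 9018), 0 of 22 over both sexes (289 of 5760) and 3 of 23 by sex (199 of 5760), and DESeq2 gave 1 of 23 by sex (400 of 5760). In libraries with a high gene body share the H3K36me3 count was 1 of 29 in females (321 of 9018), the region's female difference -0.18, and the male differences -9.96 kb and -132 reads per M, with 1 male ethanol library left and so no test.

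Leaving out each library in turn gave H3K9me3 counts of 1 to 4 in males, 2 to 5 in females, 0 to 3 over both sexes, 0 to 1 for the interaction and 1 to 2 for sex, and H3K36me3 counts of 0 to 2 in males, 0 to 2 in females, 0 to 2 over both sexes and 0 to 3 by sex. The H3K9me3 length differed by -7.44 to 45.8 kb in males and 26.3 to 72.5 kb in females, and its read share by 18.7 to 103 and 58.0 to 165. The H3K36me3 length differed by 12.3 to 30.1 and -26.6 to 3.60 kb, and its read share by 15.99 to 193 and -193 to 66.4. For the H3K36me3 region, counting the block gave -0.00889 in females, and whole islands gave 0.32 in males, -0.00842 in females and -0.33 between sexes. Except where islands are recounted by another length, the cause was not tested. At an FDR of 0.01 no H3K36me3 region besides the named one could be tested in males.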

Other observations

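H3K9me3 reads of the domain per M reads in all listed islands were 1648 to 2084 in the 11 male pools (1743 ± 122, SD) and 1117 to 1645 in the 11 female pools (1433 ± 137). The window of the same length before the domain had 1218 to 1312 in males and 1039 to 1232 in females. The window after it had 1341 to 1520 in males and 836 to 1232 in females. On this measure the sexes overlapped in the window before, but not in the domain or in the window after. Per M reads in autosomal islands alone, the domain had 1762 to 2252 in males and 1342 to 2045 in females, and the sexes overlapped.

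Among other noncoding genes of the domain, B230209E15Rik had the highest median H3K9me3 coverage, at 17.9% of its 85.5 kb, with 8.29% H3K36me3. Gm44643 had 13.99 and 0%, A230006K03Rik 10.9 and 2.50%, and A230057D06Rik 2.99 and 0%. These genes were named after their values were seen.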
